A study of Saccharomyces cerevisiae with 6 samples.

Results

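Ty elements are the retrotransposons of budding yeast, and the 60 rows described here are reading frames of the families Ty1 to Ty5 in a table of 7127 features. They were chosen by their systematic names, whatever their values. The 60 rows hold 40 rows of 20 Ty1 elements, 10 rows of 5 Ty2 elements, 3 rows of 2 Ty3 elements, 4 rows of 2 Ty4 elements and 1 row of a Ty5 element. YIL082W and YLR035C-A were assigned to no family. RefSeq has no entry named YIL082W, and it describes YLR035C-A as part of a mutant retrotransposon. The table held 33 further Ty rows, which enter below only where stated.

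Poly(A)-selected RNA was sequenced from yeast mother cells held for 24 h in a ministat aging device (aged, 3 libraries) and from cultures in exponential growth (young, 3 libraries). All 6 libraries came from the strain CGY4.51, with the genotype label MAT@, grown in synthetic complete medium, and the study called its nonreporter strains prototrophic. A ministat aging device keeps bead-labelled mother cells on a magnet while fresh medium carries their daughters away, so age and culture system cannot be told apart here. The titles call the 3 libraries of each group biological replicates. Each aged library shares a batch number with a young library, and nothing in the labels names separate founding colonies, so the p-values measure the spread between these libraries.

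Ty elements copy themselves through an RNA that runs from one long terminal repeat to the other. The Gag frame encodes the shell of a virus-like particle, and the Gag-Pol product, which adds protease, integrase, reverse transcriptase and RNase H, is made only when a ribosome slips into another frame at the end of Gag. Ty1, Ty2 and Ty4 belong to the copia group, and Ty3 to the gypsy group, which is related to retroviruses. Ty1 RNA is abundant in haploid cells and is kept in check by many host genes.

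The slip sites are shown because they divide the Gag rows from the Gag-Pol rows. The 41 bases around the annotated frame change are given 5′ to 3′ for 1 element of each family, with the heptamer at which the ribosome changes frame in capitals. They were read from build R64 at chrII:222615-222655 (plus strand) for YBL005W-B, chrIV:518043-518083 (minus strand) for YDR034C-D, chrVII:708440-708480 (plus strand) for YGR109W-B and chrVIII:86975-87015 (plus strand) for YHL009W-B.
YBL005W-B (Ty1): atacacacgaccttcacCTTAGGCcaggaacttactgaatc
YDR034C-D (Ty2): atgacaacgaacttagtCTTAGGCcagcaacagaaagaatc
YHL009W-B (Ty4): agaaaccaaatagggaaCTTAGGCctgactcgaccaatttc
YGR109W-B (Ty3): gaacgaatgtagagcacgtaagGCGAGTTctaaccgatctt
CTTAGGC stood at the frame change of all 19 Ty1, all 5 Ty2 and both Ty4 Gag-Pol rows for which RefSeq marks a slip. Both Ty3 rows held GCGAGTT there and no CTTAGGC.

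The start of each element was compared next, as 250 bases before and 50 bases after the first base of the Gag start codon. The 4 windows below are those of the Ty1 element with the largest rise of its summed rows, the Ty1 element with the largest fall, a Ty1 element that rose and carries a Ty2-like long terminal repeat, and a Ty3 element. Capitals mark the start codon, TATAAA on the printed strand, and TGGTAGCG, the letters that pair with the end of the initiator methionine tRNA that primes reverse transcription. All 4 lie on the plus strand of build R64, at chrII:259619-259918 for YBRWTy1-2, chrVII:535807-536106 for YGRWTy1-1, chrXIV:519206-519505 for YNLWTy1-2 and chrVII:707360-707659 for YGRWTy3-1.
YBRWTy1-2: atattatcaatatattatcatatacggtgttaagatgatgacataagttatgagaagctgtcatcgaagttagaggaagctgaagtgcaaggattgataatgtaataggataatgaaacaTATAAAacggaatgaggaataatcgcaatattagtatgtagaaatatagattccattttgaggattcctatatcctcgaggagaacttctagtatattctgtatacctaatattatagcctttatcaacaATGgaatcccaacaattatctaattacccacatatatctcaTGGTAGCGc
YGRWTy1-1: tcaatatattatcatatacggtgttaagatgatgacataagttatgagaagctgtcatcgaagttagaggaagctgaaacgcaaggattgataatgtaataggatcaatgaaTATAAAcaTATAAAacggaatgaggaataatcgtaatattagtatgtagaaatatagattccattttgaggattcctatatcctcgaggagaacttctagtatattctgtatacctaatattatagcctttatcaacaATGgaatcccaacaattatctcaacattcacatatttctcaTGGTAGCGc
YNLWTy1-2: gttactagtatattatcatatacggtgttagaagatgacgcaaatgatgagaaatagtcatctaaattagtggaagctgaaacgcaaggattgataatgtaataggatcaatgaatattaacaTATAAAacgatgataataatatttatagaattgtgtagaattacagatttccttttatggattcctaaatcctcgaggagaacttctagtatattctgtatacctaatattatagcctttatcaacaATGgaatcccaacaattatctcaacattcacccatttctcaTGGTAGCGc
YGRWTy3-1: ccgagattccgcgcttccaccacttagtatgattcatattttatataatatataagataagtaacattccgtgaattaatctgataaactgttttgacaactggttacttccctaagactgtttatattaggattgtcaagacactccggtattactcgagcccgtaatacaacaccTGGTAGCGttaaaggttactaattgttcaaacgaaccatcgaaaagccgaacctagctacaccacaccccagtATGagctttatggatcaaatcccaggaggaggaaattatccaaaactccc
TGGTAGCG was present in 27 of the 29 Ty1 to Ty4 windows, all but those of the 2 Ty4 elements. The windows of 7 Ty1 elements were nearer in sequence to that of the Ty2 element YDRCTy2-1 than to that of YBRWTy1-2, and 13 were nearer to the Ty1 form. Motifs were searched on both strands. TATAAA occurred in all 20 Ty1 windows, against 45.4% of the windows of the same length at 6020 protein-coding genes. TGAAAC, the core bound by the mating factor Ste12, occurred in all 20 Ty1, all 5 Ty2 and both Ty4 windows and in neither Ty3 window, against 19.9% of gene windows. CATTCC, the core bound by Tec1, the partner of Ste12 in invasive growth, was in 13 Ty1 windows, 1 Ty2 window and both Ty3 windows and in neither Ty4 window, against 10.9% of gene windows. The 13 Ty1 windows with CATTCC were the same 13 that were nearer to the Ty1 form. Windows of 1 family are close copies, so their counts are not independent observations as those of separate genes are. Such matches describe the letters of these windows only. A window does not reach the first base of its element, and in Ty3 more is left out. YGRWTy3-1 begins at 707195 and its window at 707360, against 259578 and 259619 for YBRWTy1-2. The bases before each window were not searched. Of the 29 Ty1 to Ty4 elements, 24 lay within 1000 bases of a tRNA gene, the usual neighbourhood of these elements, whose integration is directed to genes of RNA polymerase III.

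Copies of Ty1 are so alike that their rows cannot be read as separate measurements. Every 150-base window of each element's longest row, the length of a sequenced read, was looked up on both strands of the genome. In Ty1, 7.60% of the windows occurred at a single place, 29.2% at 2 to 10 places and 63.2% at more than 10. In Ty2 the shares were 15.4%, 63.3% and 21.4%. Ty3 and Ty4 had no window at more than 10 places, and 71.0% of Ty3 and 30.3% of Ty4 windows occurred at a single place. Of the 360 member values, 82.5% lay more than 0.005 from a whole number, against 54.3% to 59.5% of all values in each library. The Gag frame lies inside the Gag-Pol frame in 26 of the 28 elements with both rows, and in all 26 the Gag row did not exceed the Gag-Pol row in any library. Levels of single Ty1 rows therefore rest on how shared reads were divided, and sums over elements, frames and families are given beside them.

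**Figure D1:**
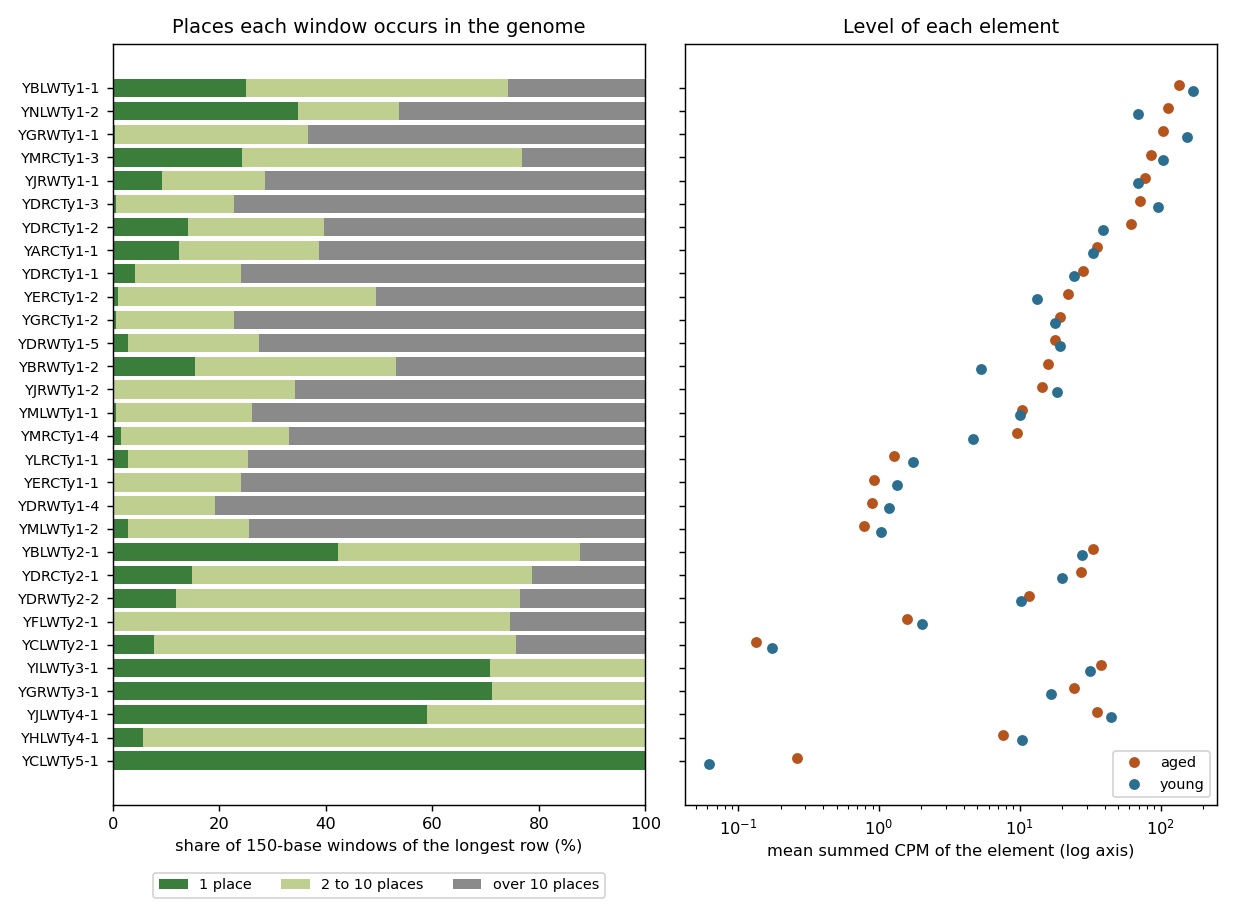
The left panel gives, for each of the 30 elements, the share (%) of the 150-base windows of its longest row that occur at 1 place, 2 to 10 places or over 10 places in the genome, and the right panel gives the mean of its summed counts per 1000000 counts (CPM, log axis, 3 aged and 3 young libraries). Ty1 elements range from 0% to 34.9% of windows at a single place, and YBRWTy1-2 averaged 15.8 CPM in aged and 5.33 CPM in young libraries.

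The aged libraries held 29230292 to 41650202 counts and the young libraries 30140666 to 35102213. Ribosomal protein genes took 28.7% to 30.7% of the counts in aged libraries and 40.6% to 44.6% in young libraries. Rows of the ribosomal DNA took 0.0638% to 0.0758% in aged and 0.00123% to 0.00226% in young libraries. The 4 alpha-specific markers together reached 3389 to 3718 CPM in aged and 4386 to 5375 CPM in young libraries, while the 7 a-specific markers together reached 38.4 to 41.6 CPM in aged and 32.3 to 39.4 CPM in young libraries. The 8 daughter-specific markers summed to 1067 to 1185 CPM in aged and 916 to 1005 CPM in young libraries, and the 8 haploid-specific markers to 835 to 889 and 955 to 1123 CPM. Log2 fold changes, aged over young, ran from -1.58 to 0.33 in the alpha-specific list and from -0.24 to 1.96 in the a-specific list. They ran from -0.36 to 0.41 in the daughter-specific list and from -1.18 to 0.85 in the haploid-specific list. MF(ALPHA)1 alone averaged 2912 CPM in aged and 3940 CPM in young libraries. In bulk RNA, fewer cells of a type and less RNA per cell cannot be told apart, and the part of these shifts in the Ty values was not tested.

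Ty rows as a group took a larger share of the counts in aged cells, and so did the median tested feature. With library totals alone the median log2 fold change was 0.54 over all tested features and 0.65 over the 48 tested Ty rows. The 60 rows together made up 0.125%, 0.113% and 0.125% of all counts in the aged libraries, against 0.0868%, 0.0806% and 0.0884% in the young libraries. The groups did not overlap, and the difference of 0.0357 percentage points had an exact two-sided permutation p of 0.1, the smallest that 3 libraries against 3 can give. Over the counts outside ribosomal protein genes, whose own share was lower in aged libraries, the Ty share was 0.171% ± 0.00655 in aged and 0.148% ± 0.00438 in young libraries (SD, n = 3 each), a difference of 0.0230 points.

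Scaling decides how such a shift is read. Counts were scaled by the trimmed mean of M values (TMM), which centres the bulk of the genes, and all CPM below are on that scale. The median log2 fold change over the 6755 tested features was 0.025. With library totals alone it was 0.54, and with upper-quartile scaling 0.090. Each change below is thus one relative to the centre of the genes, whatever its size. Calls of named rows, genes, families and frames that were lost or reversed with library totals are given with that value.

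On the TMM scale the families moved in different directions: Ty3 and Ty2 were higher in aged cells, Ty4 was lower, and the most abundant, Ty1, was not past the threshold. The threshold throughout is a Benjamini-Hochberg adjusted p under 0.05 in the quasi-likelihood test of edgeR over all features. In the table with family sums 63.6% of all features passed it, and 3 of the 4 tested families did.

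The 40 Ty1 rows summed to 844, 809 and 820 CPM in the aged libraries, against 801, 888 and 865 CPM in the young libraries. The groups overlapped, and the log2 fold change was -0.046 (SE 0.0841, adjusted p = 0.646). With library totals alone it was 0.47 (adjusted p = 0.000379), below the median shift of all features under that scaling. Ty1 was the bulk of the Ty signal in both groups.

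Ty2 is close to Ty1 in sequence over most of its length but has a Gag of its own. The 10 Ty2 rows summed to 73.9, 71.8 and 75.1 CPM in aged, against 52.9, 64.7 and 62.4 CPM in young libraries. All aged libraries lay above all young ones, with a log2 fold change of 0.30 (SE 0.0829, adjusted p = 0.01004). Within batches 1, 2 and 3 the log2 ratio was 0.48, 0.15 and 0.27. The call depends on which Ty2 copies are summed: over all 20 Ty2 rows of the table the log2 fold change was -0.062 (adjusted p = 0.512).

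Ty3, whose genomic RNA is known to be induced by mating pheromone, was the family with the lowest adjusted p among the rises. Its 3 rows summed to 66.6, 57.4 and 62.3 CPM in aged, against 50.5, 45.6 and 48.9 CPM in young libraries. The groups did not overlap, and the log2 fold change was 0.36 (SE 0.0776, adjusted p = 0.00229). It was 0.40, 0.33 and 0.35 within the 3 batches.

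Ty4, a copia-group family of low copy number, went the other way. Its 4 rows summed to 41.6, 45.5 and 41.6 CPM in aged, against 58.8, 50.3 and 55.7 CPM in young libraries, with no overlap. The log2 fold change was -0.36 (SE 0.0789, adjusted p = 0.0027), and it turned to 0.15 (adjusted p = 0.256) with library totals alone, where the median feature stood at 0.54.

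**Figure D2:**
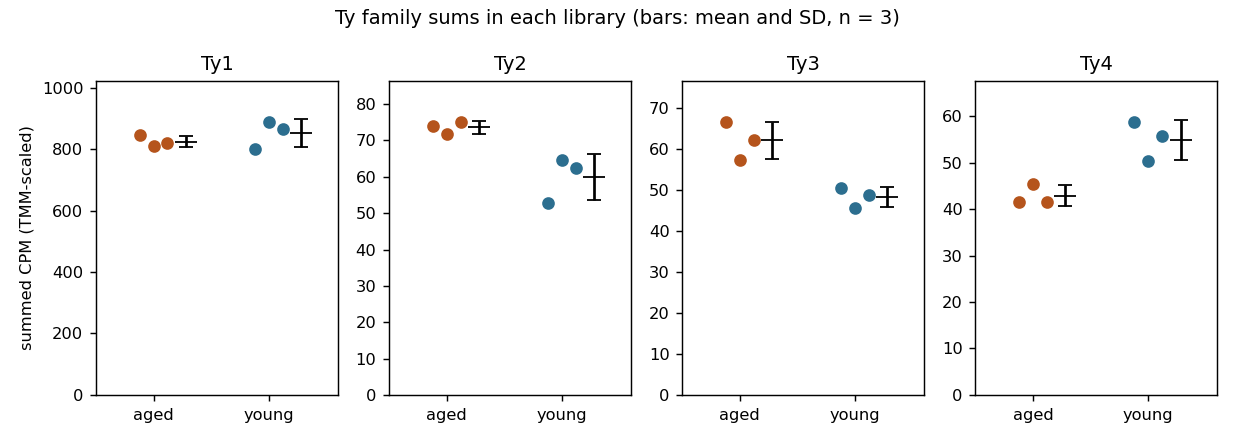
Summed CPM (TMM-scaled, linear axes from 0) of the Ty1, Ty2, Ty3 and Ty4 rows in each of the 3 aged and 3 young libraries, with the mean and SD beside the points. Ty2 and Ty3 points of the aged libraries lie above those of the young ones, Ty4 points lie below, and Ty1 points overlap.

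Ty5 was represented by YCL074W, which RefSeq annotates as a pseudogene fragment in the degenerate element YCLWTy5-1 (chrIII:2824-3750, plus strand), near the silenced left end of that chromosome. It had 7.83, 13.8 and 12 counts in aged libraries, against 2.33, 3.00 and 0 counts in young libraries. These few counts stayed under the filter on low values, and no fold change is given for the row. Both Ty5 rows of the table together had 9.33, 17.8 and 18.5 counts in aged, against 2.33, 3 and 0 counts in young libraries. That sum passed the filter only through its aged libraries, so no test of it is given.

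Among single rows, 48 of the 60 passed the filter on low values and 12 did not, 10 of them Gag rows. The 12 had 5.33 to 39.0 counts each over the 6 libraries together. Of the 48, 14 were higher in aged cells and 9 lower, and 25 were not past the threshold. That is 47.9% of the tested rows, where 63.5% of all tested features passed (32.7% higher and 30.8% lower). All aged libraries lay above all young ones in 16 rows, or 33.3%, against 36.3% of all features, and below in 13 rows, or 27.1%, against 33.8%. The median log2 fold change was 0.13 over the 48 rows. With library totals alone 29 rows were higher and none of them lower, and 89.2% of the calls over all features were higher, against 51.5% with TMM.

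**Figure D3:**
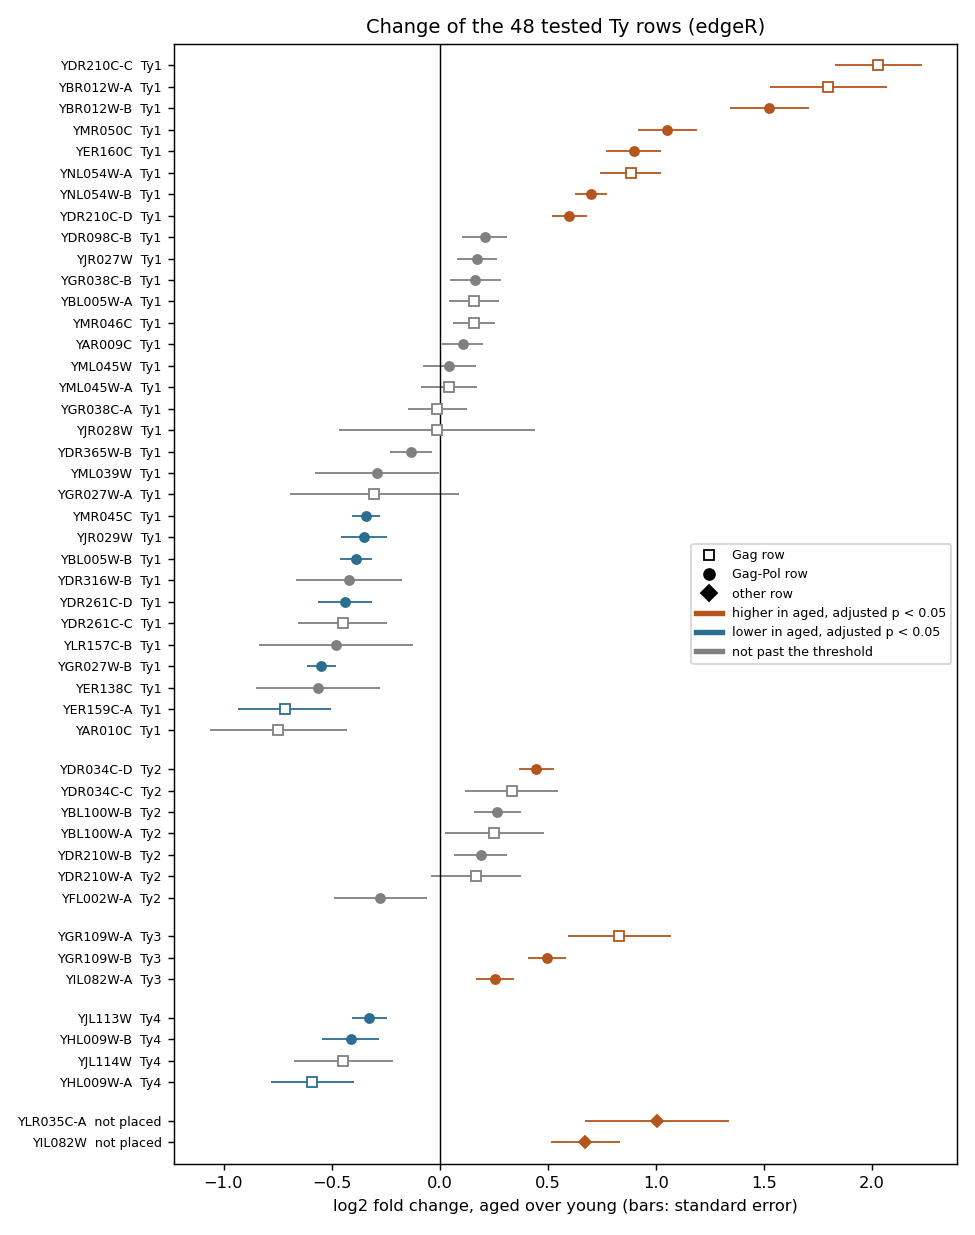
Log2 fold change, aged over young, with its standard error for each of the 48 tested Ty rows, ordered within each family. Open squares are Gag rows, circles Gag-Pol rows and diamonds the rows of no family, and colours mark the 14 rows higher and the 9 rows lower in aged cells.

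In Ty1, 8 of 32 tested rows were higher and 6 lower, although the family sum barely moved. Summed per element, 5 of 20 Ty1 elements were higher, 5 lower and 10 not past the threshold, where 63.5% of all features of that table passed. The log2 fold change of the elements ran from -0.55 to 1.56.

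YBRWTy1-2 on chromosome II had the largest change of the Ty1 elements. Its Gag-Pol row YBR012W-B (chrII:259869-265140, plus strand) had 13.0, 12.1 and 15.2 CPM in aged, against 6.22, 3.61 and 4.21 CPM in young libraries. The groups were far apart, with a log2 fold change of 1.52 (SE 0.181, adjusted p = 5.91e-05). Its Gag row YBR012W-A had 2.58, 2.16 and 2.25 CPM in aged, against 0.963, 0.447 and 0.586 CPM in young libraries, a log2 fold change of 1.80. In YBR012W-B 46.9% and in YBR012W-A 71.5% of the windows occurred at more than 10 places. Values of both rows thus also rest on how shared reads were divided.

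The row with the largest fold change was YDR210C-C, the Gag frame of YDRCTy1-2 on chromosome IV. It had 4.23, 3.999 and 3.45 CPM in aged, against 1.11, 0.782 and 0.952 CPM in young libraries, with a log2 fold change of 2.03 (SE 0.202). The Gag-Pol row that contains it, YDR210C-D, rose less, by 0.60 (SE 0.0797), with 57.8 ± 4.41 CPM in aged and 38.1 ± 2.19 CPM in young libraries (SD, n = 3 each). Both rows passed the threshold in every alternative run. In YDR210C-C 80.2% and in YDR210C-D 60.3% of the windows occurred at more than 10 places, so the division of shared reads also enters these values.

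YNL054W-B, the Gag-Pol frame of YNLWTy1-2 (chrXIV:519456-524706, plus strand), is among the most abundant Ty1 rows and has the largest share of windows found nowhere else among the Ty1 Gag-Pol rows, 34.9%. It had 106, 100.1 and 106 CPM in aged, against 58.7, 67.2 and 66.4 CPM in young libraries. No aged library came near a young one, and the log2 fold change was 0.70 (SE 0.0745, adjusted p = 3.17e-05). Its Gag row YNL054W-A changed by 0.88 (SE 0.141).

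YMR050C, the Gag-Pol frame of YMRCTy1-4, had 9.08, 10.0 and 9.10 CPM in aged, against 4.70, 3.76 and 5.13 CPM in young libraries, a log2 fold change of 1.05 (SE 0.136). YER160C, the Gag-Pol frame of YERCTy1-2, had 20.7, 22.2 and 19.0 CPM in aged, against 9.29, 10.7 and 13.3 CPM in young libraries, a log2 fold change of 0.90 (SE 0.128). Neither row's groups overlapped, but YMR050C and YER160C had only 1.62% and 0.957% of their windows at a single place. Their values thus rest on how shared reads were divided. The Gag row of YERCTy1-2, YER159C-A, was lower in aged cells: it had 1.503, 1.30 and 1.16 CPM in aged, against 1.85, 2.61 and 2.01 CPM in young libraries, a log2 fold change of -0.72 (SE 0.217). Without aged replicate 3 its adjusted p was 0.0656, and with library totals alone its log2 fold change was -0.20 (adjusted p = 0.420).

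On the TMM scale, several of the most abundant Ty1 rows were lower in aged cells. YGR027W-B, the Gag-Pol frame of YGRWTy1-1 (chrVII:536057-541325, plus strand), had 109, 101 and 103 CPM in aged, against 156, 152 and 149 CPM in young libraries. The log2 fold change was -0.55 (SE 0.0683, adjusted p = 7.98e-05), or -0.034 with library totals alone. Only 0.430% of the windows of YGR027W-B occurred at a single place. YBL005W-B, of YBLWTy1-1 (chrII:221330-226598, plus strand), had 125, 116 and 122 CPM in aged, against 149, 165 and 161 CPM in young libraries, a log2 fold change of -0.39 (SE 0.0742) that was 0.13 with library totals alone.

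The falls of YMR045C, YDR261C-D and YJR029W were of like size. YMR045C, of YMRCTy1-3, had 73.6, 68.8 and 72.6 CPM in aged, against 90.2, 89.9 and 92.3 CPM in young libraries, a log2 fold change of -0.34 (SE 0.0642). YDR261C-D, of YDRCTy1-3, had 72.2, 69.6 and 67.3 CPM in aged, against 77.8, 116 and 89.5 CPM in young libraries, with young replicate 2 standing highest and a log2 fold change of -0.44 (SE 0.124). YJR029W, of YJRWTy1-2, had 14.5, 15.0 and 13.1 CPM in aged, against 17.6, 16.2 and 20.4 CPM in young libraries, a log2 fold change of -0.35 (SE 0.106). With library totals alone the values of YMR045C, YDR261C-D and YJR029W were 0.17, 0.089 and 0.16, none past the threshold. The YJR029W call was lost without young replicate 3 (adjusted p = 0.0631) and without aged replicate 3 (adjusted p = 0.0680). That row had 0% of its windows at a single place.

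The most abundant Ty1 rows held a smaller share of the Ty1 counts in aged cells. The 5 rows of highest mean count over all 6 libraries, YBL005W-B, YGR027W-B, YNL054W-B, YMR045C and YDR261C-D, held 56.3% to 57.6% of all Ty1 counts in the aged libraries and 64.7% to 66.5% in the young libraries. With the 5 most abundant rows of each group, in both of which YJR027W enters, the shares were 57.7% to 58.5% in aged and 65.4% to 67.2% in young libraries. Of these 5 rows only YNL054W-B was higher in aged cells on the TMM scale.

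Ty1 elements with either form of long terminal repeat moved both ways. The 13 with the Ty1-like start window had log2 fold changes of the element sum from -0.55 to 1.56, with 3 higher and 3 lower. The 7 with the Ty2-like window ran from -0.44 to 0.71, with 2 higher and 2 lower. The medians were -0.27 and 0.12, and the ranges overlapped. In 4 of the 13 the identities to the 2 forms differed by under 2 percentage points, and the median of the other 9 was 0.045, so the median of the Ty1-like elements rests on these near-tied ones.

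In Ty2 the Gag-Pol row YDR034C-D of YDRCTy2-1 was the 1 row of 7 tested that passed the threshold. It had 24.2, 25.2 and 26.6 CPM in aged, against 17.6, 19.6 and 18.7 CPM in young libraries, a log2 fold change of 0.45 (SE 0.0811). The most abundant Ty2 row, YBL100W-B, had 33.0, 29.7 and 30.9 CPM in aged, against 21.3, 29.1 and 27.3 CPM in young libraries, and its log2 fold change of 0.27 had an adjusted p of 0.0538, or 0.0185 with a replicate block. Few counts were assigned to the elements YFLWTy2-1 and YCLWTy2-1. The Gag-Pol row of each, YFL002W-A and YCL019W, averaged 1.53 and 0.112 CPM in aged and 1.85 and 0.148 CPM in young libraries. YFLWTy2-1 has 0% of its windows at a single place, so its values also rest on how shared reads were divided. YCLWTy2-1 has 7.74%. YDR210W-B, with 11.9%, averaged 8.95 CPM in aged and 7.86 CPM in young libraries. Why so few counts fell to YCLWTy2-1 was not tested.

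All 3 Ty3 rows were higher in aged cells. YGR109W-B, the Gag-Pol frame of YGRWTy3-1 (chrVII:707610-712254, plus strand), had 22.5, 20.4 and 19.7 CPM in aged, against 14.8, 15.2 and 14.3 CPM in young libraries, a log2 fold change of 0.50 (SE 0.0872, adjusted p = 0.000658). Its Gag row YGR109W-A had 3.74, 3.18 and 3.05 CPM in aged, against 1.78, 1.23 and 2.56 CPM in young libraries, a log2 fold change of 0.83 (SE 0.240). The groups of both rows were separate, though the YGR109W-A call was lost without aged replicate 1 (adjusted p = 0.0508).

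YIL082W-A, the Gag-Pol frame of the other Ty3 element YILWTy3-1 (chrIX:205635-210132, plus strand), had 40.3, 33.9 and 39.5 CPM in aged, against 34.0, 29.3 and 32.0 CPM in young libraries. Aged replicate 2 fell just below young replicate 1, and the log2 fold change of 0.26 (SE 0.0899, adjusted p = 0.0289) missed the threshold in 4 of the fits that left out a library: aged replicate 1 (adjusted p = 0.121), aged replicate 3 (0.103), young replicate 2 (0.0695) and young replicate 3 (0.0705). Per kilobase of row length YIL082W-A averaged 8.43 CPM in aged and 7.06 CPM in young libraries, and YGR109W-B averaged 4.49 CPM in aged and 3.18 CPM in young libraries.

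In Ty4, 3 of 4 rows were lower in aged cells. YJL113W, the Gag-Pol frame of YJLWTy4-1 (chrX:198678-203325, plus strand), had 32.6, 34.7 and 33.0 CPM in aged, against 45.4, 38.1 and 42.2 CPM in young libraries, a log2 fold change of -0.33 (SE 0.0796, adjusted p = 0.00480). The Gag row YJL114W had 1.25, 2.23 and 2.10 CPM in aged, against 2.67, 2.57 and 2.45 CPM in young libraries, and its log2 fold change of -0.45 had an adjusted p of 0.110. Neither pair of groups overlapped.

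YHL009W-B, the Gag-Pol frame of YHLWTy4-1 (chrVIII:85909-91318, plus strand), had 5.28, 6.00 and 4.79 CPM in aged, against 7.48, 6.52 and 7.36 CPM in young libraries, a log2 fold change of -0.41 (SE 0.132). Its Gag row YHL009W-A had 2.38, 2.52 and 1.75 CPM in aged, against 3.22, 3.05 and 3.66 CPM in young libraries, a log2 fold change of -0.59 (SE 0.190). Both calls were lost without young replicate 3 (adjusted p = 0.0543 for YHL009W-B and 0.0715 for YHL009W-A) and without aged replicate 3 (0.0873 and 0.0909), and that of YHL009W-B also without aged replicate 1 (0.0638). With library totals alone YJL113W stood at 0.18, YJL114W at 0.066, YHL009W-B at 0.095 and YHL009W-A at -0.079.

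Of the rows of no family, YIL082W had 6.01, 5.54 and 6.25 CPM in aged, against 4.52, 3.05 and 3.59 CPM in young libraries, a log2 fold change of 0.67 (SE 0.160). YLR035C-A had 1.70, 1.11 and 1.38 CPM in aged, against 0.407, 1.04 and 0.622 CPM in young libraries, a log2 fold change of 1.00 (SE 0.333). In YLR035C-A, 85.2% of the 150-base windows also occurred in Ty1 rows and 0.813% in Ty2 rows. Its call was lost when aged replicate 1 (adjusted p = 0.0884), aged replicate 3 (0.0563), young replicate 1 (0.0736) or young replicate 3 (0.0786) was left out.

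Gag rows held far fewer counts than Gag-Pol rows, and the balance between their sums shifted in Ty1, unevenly over the copies. The 20 Ty1 Gag rows summed to 60.8, 55.0 and 55.4 CPM in aged, against 48.5, 44.4 and 48.3 CPM in young libraries. All aged libraries lay above the young ones, with a log2 fold change of 0.28 (SE 0.0732, adjusted p = 0.0072), in a table where 63.6% of features passed. YNL054W-A averaged 9.04 CPM in aged and 4.89 CPM in young libraries, YDR210C-C 3.89 and 0.948 CPM, and YBR012W-A 2.33 and 0.665 CPM. YER159C-A was lower, and the other tested Ty1 Gag rows did not pass the threshold. The Ty1 Gag-Pol rows summed to 784, 754 and 764 CPM in aged, against 753, 844 and 816 CPM in young libraries, and their log2 fold change of -0.068 (SE 0.0844) had an adjusted p of 0.499.

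The log2 ratio of Ty1 Gag to Ty1 Gag-Pol counts was -3.69, -3.78 and -3.79 in aged, against -3.95, -4.25 and -4.08 in young libraries. The groups were separate, and the difference of 0.34 had an exact two-sided permutation p of 0.1, the smallest possible with 3 against 3. Over all families the ratio differed by 0.26 with the same p. In Ty3 it was -4.15 ± 0.117 in aged and -4.71 ± 0.506 in young libraries, a difference of 0.56 (exact permutation p = 0.2, n = 3 each). The sides of the Ty3 ratio do not match: Gag is the row YGR109W-A of 1 element, while Gag-Pol sums 2 rows, 1 from each element. In Ty4 the ratio went the other way from Ty1, at -3.26 ± 0.145 in aged and -3.06 ± 0.0977 in young libraries, a difference of -0.21 (exact permutation p = 0.2, n = 3 each). In Ty2 the ratio was -3.38 ± 0.103 in aged and -3.28 ± 0.0760 in young libraries (SD, n = 3 each), a difference of -0.10 (exact permutation p = 0.3). A read of the Gag frame also lies in the Gag-Pol row, and its counting rule was not given in the sources used here, so the ratio is a ratio of counts and not of proteins or of transcripts.

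In Ty2 the Gag-Pol sum rose by 0.30 (SE 0.0834, adjusted p = 0.00886), while over all Ty2 rows of the table it stood at -0.080. The Ty2 Gag sum had a log2 fold change of 0.20 (SE 0.130, adjusted p = 0.192). The Ty3 Gag-Pol sum was higher by 0.34 (log2, SE 0.0768, adjusted p = 0.00314), and the Ty3 Gag sum is the row YGR109W-A alone. On the log2 scale Ty4 Gag fell by 0.53 (SE 0.145, adjusted p = 0.00893) and Ty4 Gag-Pol fell by 0.34 (SE 0.0796, adjusted p = 0.00393), and with library totals alone they stood at -0.019 and 0.17.

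Both frames were tested in 18 elements, and their fold changes had the same sign in 13 and opposite signs in 5. YERCTy1-2 was the element in which both frames passed the threshold in opposite directions, as given above. In YBLWTy1-1 and YMRCTy1-3 the Gag-Pol rows fell while the Gag rows YBL005W-A and YMR046C each had a log2 fold change of 0.16 (SE 0.114 and 0.0970). YBL005W-A had 14.4, 11.9 and 14.3 CPM in aged, against 12.4, 10.8 and 13.1 CPM in young libraries. These Gag frames are a form of their own: they were 99.3% identical to each other, while their median identity to the other Ty1 Gag rows was 86.7% and 86.6%, against medians of 98.3% to 99.2% for the other 18 Ty1 Gag rows. They were also the Ty1 Gag rows with the highest level per kilobase, 10.2 and 10.5 CPM in aged and 9.15 and 9.43 CPM in young libraries for YBL005W-A and YMR046C. Both had 0% of their windows at more than 10 places, while the lowest share among the other Ty1 Gag rows described was 32.8%, in YNL054W-A. The part of shared reads in this ranking was not tested.

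**Figure D4:**
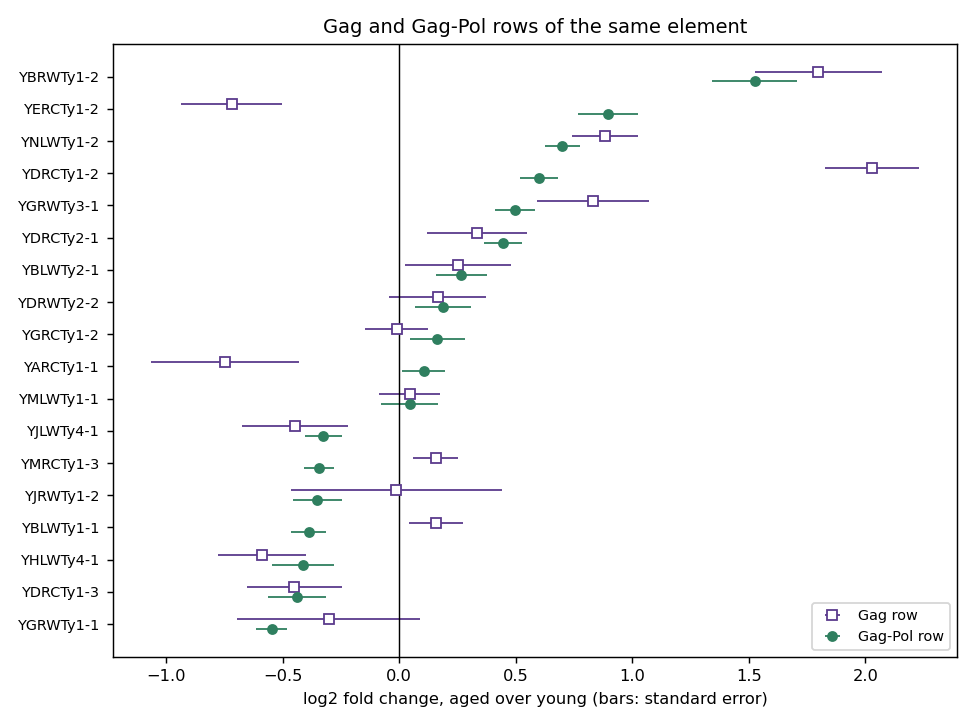
Log2 fold change, aged over young, with its standard error, of the Gag row (open squares) and the Gag-Pol row (circles) of the 18 elements in which both were tested. The frames had the same sign in 13 elements, and in YERCTy1-2 they lie at -0.72 for Gag and 0.90 for Gag-Pol.

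Ty RNA is made by RNA polymerase II from the long terminal repeat, and host genes act on its transcription, decay and integration. Of 84 host genes in 7 lists, all tested, 19 were higher in aged cells and 24 lower, or 51.2%, against 63.5% of all features. Their median log2 fold change was 0.0099, near the 0.025 of all features. With library totals alone 64 were higher and 5 lower.

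Among the 8 DNA-binding activators, 3 were higher and none lower, or 37.5%, against 63.5% of all features. TYE7, a helix-loop-helix factor of glycolytic genes that also acts at Ty1, had 113, 103 and 116 CPM in aged, against 56.0, 65.2 and 66.1 CPM in young libraries, a log2 fold change of 0.83 (SE 0.0839). MCM1, a MADS-box factor, changed by 0.34. STE12 and TEC1, whose sites were described above, had log2 fold changes of -0.18 and -0.12 that were not past the threshold (adjusted p = 0.129 and 0.174).

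Among 11 genes of the SAGA and SWI/SNF coactivators, 2 were higher and 3 lower, or 45.5%, against 63.5% of all features. ADA2, a SAGA subunit, had 41.4, 44.9 and 36.8 CPM in aged, against 81.8, 89.7 and 79.8 CPM in young libraries, a log2 fold change of -1.03 (SE 0.0873). SWI3, of SWI/SNF, had a log2 fold change of -0.60, or -0.080 with library totals alone. SNF2, the ATPase of SWI/SNF, was higher by 0.31 (log2) and SPT15, the TATA-binding protein, by 0.27. The SNF2 call was lost without young replicate 3 or aged replicate 1 (adjusted p = 0.0591 and 0.0539), and that of SPT15 when aged replicate 1 (0.137), aged replicate 3 (0.0710), young replicate 2 (0.0840) or young replicate 3 (0.0602) was left out.

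Among 12 histone chaperones and silencing factors, 2 were higher and 3 lower, or 41.7%, against 63.5% of all features. BRE1, the ubiquitin ligase of histone H2B, had a log2 fold change of -0.79 (SE 0.0778), and RLF2, a subunit of chromatin assembly factor, one of -0.41, which was 0.11 with library totals alone. ASF1, a histone chaperone, was higher by 0.37 (log2, SE 0.105). SIR2, the silencing deacetylase, was higher by 0.29 (log2), a call lost without young replicate 1, aged replicate 1 or aged replicate 3 (adjusted p = 0.0780, 0.0863 and 0.0866).

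The mating and invasive growth kinase pathway had 3 of 7 genes higher and none lower, or 42.9%, against 63.5% of all features. FUS3, the mating MAP kinase that restrains Ty1, had 49.1, 49.1 and 54.3 CPM in aged, against 26.9, 28.9 and 29.1 CPM in young libraries, a log2 fold change of 0.85 (SE 0.0742). DIG1, an inhibitor of Ste12, was higher by 0.38 (log2, SE 0.0636).

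Genome caretakers that restrict Ty1 had 9 of 18 genes lower and 3 higher, or 66.7% past the threshold, near the 63.5% of all features, with a median log2 fold change of -0.15. RTT107, a scaffold of the DNA damage response, had 83.2, 87.5 and 78.9 CPM in aged, against 146, 160 and 157 CPM in young libraries, a log2 fold change of -0.89 (SE 0.0745). RAD50, of the complex that resects broken ends, had a log2 fold change of -0.70, or -0.19 with library totals alone. RAD54, a recombination gene, was higher by 0.32 (log2, SE 0.0764).

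RNA decay and P-body factors had 5 of 10 genes lower and 1 higher, or 60%, against 63.5% of all features. DCP1 and DCP2, the decapping enzyme's subunits, had log2 fold changes of -0.92 and -0.26, and DCP2 stood at 0.26 with library totals alone. XRN1, the exonuclease that degrades decapped RNA, was higher by 0.31 (log2, SE 0.0809).

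The RNA polymerase III machinery, which marks the sites where Ty1 and Ty3 integrate, had 5 of 18 genes higher and 4 lower. Together 50% passed the threshold, against 63.5% of all features. RET1 and RPO31, which encode the large catalytic subunits of that polymerase, were higher by 0.96 and 0.69 (log2). The small subunit gene RPC17 had a log2 fold change of -1.16 (SE 0.135), and TFC8, of the assembly factor TFIIIC, one of -0.44, or 0.083 with library totals alone.

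**Figure D5:**
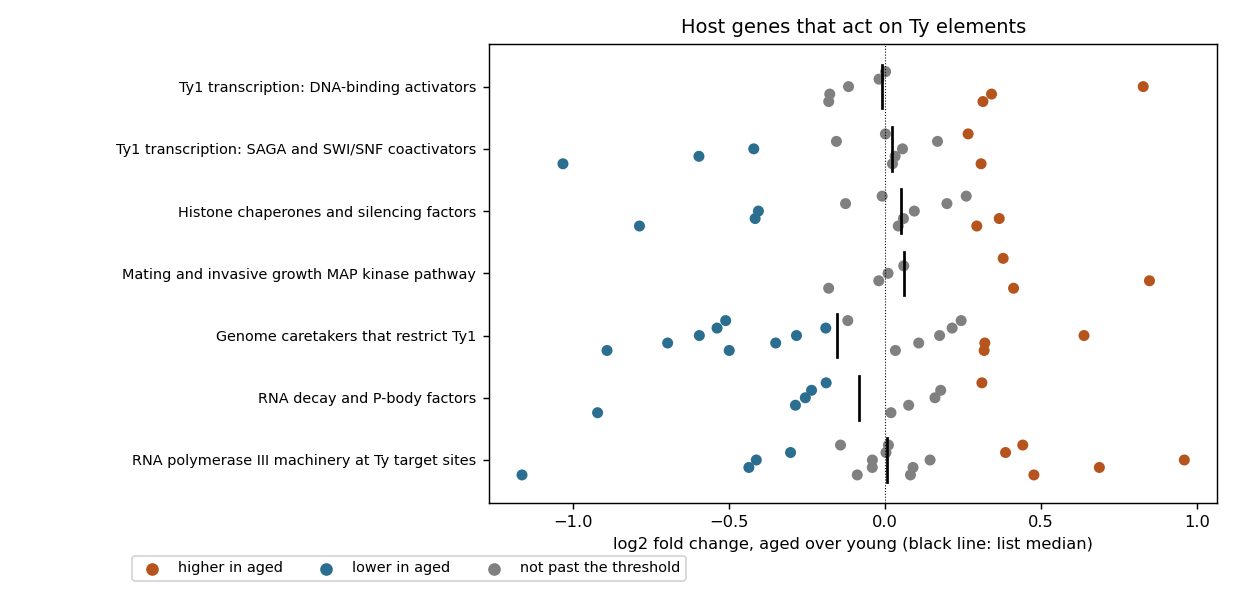
Log2 fold change, aged over young, of each tested gene in 7 lists of host genes that act on Ty elements, with the list median as a black line. Points are spread vertically only to be seen apart, and the medians lie between -0.15 and 0.060.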

How the data were processed

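Per the labels and the study's methods, RNA was poly(A)-selected and made into directional libraries, and paired reads of 150 bases were sequenced. The submitters' processing notes name bcl2fastq, cutadapt 2.6, STAR 2.7.6a, featureCounts and Subread 1.6.2, with build R64. The authors deposited estimated counts per gene, not normalized and often not whole, as when reads with several places are divided. Their settings for shared reads, strand and overlap are not given in the sources used here.

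Here the counts were rounded, features with few counts were removed (filterByExpr of edgeR 4.0.16, minimum count 10), libraries were scaled by TMM, and aged was tested against young with the quasi-likelihood test of edgeR and Benjamini-Hochberg adjustment over all features (R 4.3.3). Tables in which Ty rows were replaced by their sums per family, frame or element were tested in the same way. Shares and ratios were compared with exact permutation tests. A standard error is the fold change divided by the root of its F statistic. Positions, frames and sequences came from RefSeq of the same build. The test was tried on simulated data with known changes.

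The tests given are unpaired. The titles number the libraries of each group as biological replicates 1 to 3. The batch numbers are the same and are shared by aged and young, so a fit with the number as a block was an alternative. The deviations of same-numbered libraries correlated at 0.126, 0.334 and 0.122, although aged replicate 3 correlated more with young replicate 1 (0.202) than with young replicate 3. The rows and lists were chosen with earlier results of these data known. Beside the family, frame and element sums, the text names every Ty3, Ty4 and Ty5 row, the 5 Ty1 and Ty2 rows of highest count, the 5 largest rises and 5 largest falls among those of them past the threshold, and in each host list the 2 genes of lowest adjusted p in each direction. Of these, 1 host gene is not reported here. Rows named beyond this rule (such as YDR210C-D, YNL054W-A, YDR034C-D, YBL100W-B, YIL082W, YLR035C-A, YBL005W-A, YJR027W, STE12 and TEC1) were chosen after their values were seen. Alternatives were DESeq2 1.42.0, limma-voom (limma 3.58.1), other scalings, filters and thresholds, and each library left out.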

Additional observations from a re-analysis of the deposited data

How the results depend on the processing

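With a replicate block for the batch number, 16 Ty rows were higher and 9 lower, and 22 host genes were higher and 25 lower. No Ty row or host gene lost its call, and YBL100W-B, YJR027W and 4 host genes gained one. Library totals alone gave 29 rows higher and 0 lower among Ty rows, and 64 higher and 5 lower among host genes. Under that scaling the log2 fold changes were 0.47 for Ty1, 0.15 for Ty4, 0.45 for Ty1 Gag-Pol, 0.72 for Ty2 Gag, -0.019 for Ty4 Gag and 0.17 for Ty4 Gag-Pol. Among single rows they were 0.13 for YBL005W-B, 0.089 for YDR261C-D, 0.095 for YHL009W-B, 0.18 for YJL113W, 0.066 for YJL114W, 0.16 for YJR029W and 0.17 for YMR045C. Among genes they were 0.11 for RLF2, 0.26 for DCP2 and 0.083 for TFC8. The median of all features was 0.54 under it. With an adjusted p under 0.01, 4 Ty rows were lower, and Ty2 at 0.30 and Ty3 Gag at 0.83 no longer passed. Over all Ty rows of the table, a choice made after seeing the data, Ty2 stood at -0.062 and Ty2 Gag-Pol at -0.080. Leaving out a library gave 11 to 17 Ty rows higher and 5 to 11 lower, the lowest count of falls without aged replicate 3, and Ty3 Gag at 0.61 to 1.13, with its call lost without aged replicate 1. The Ty share differed by 0.0230 points outside ribosomal protein genes, and the Gag to Gag-Pol ratio by -0.10 in Ty2 alone. The causes were not tested. Ty3 sums and the Ty1 Gag sum kept direction and call in every alternative run, Ty3 Gag aside. Of 24 called or named Ty rows, 12 kept their result in all alternatives and 17 with each library left out. Both counts include YJL114W, which had no call to lose and whose direction turned with library totals alone. The 12 rows under the filter had too few assigned counts to be tested.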

Other observations

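The 93 Ty rows of the whole table, with the 33 rows not described above, made up 0.203%, 0.183% and 0.201% of all counts in aged libraries, against 0.132%, 0.122% and 0.135% in young libraries. As given above, the median tested feature also rose on library totals. Summed over all 61 Ty1 rows of the table, the aged libraries lay above the young ones, at 1362, 1291 and 1310 CPM in aged and 1159, 1266 and 1258 CPM in young libraries, but the log2 fold change of 0.11 did not pass the threshold (edgeR, adjusted p = 0.309).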
